A study of Mus musculus with 5 samples.

Results

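The 6 genes Gnat1, Pde6g, Pdc, Rom1, Guca1b and Gucy2f encode proteins of the light response and of the disc in the rod, the photoreceptor of dim light. They were chosen by name: all spots with one of these as their single gene symbol in the platform annotation were taken, which gave 9 of the 17328 spots on the array. Gnat1 had 3 spots, Pdc had 2 and each of the other genes had 1. Spots of 1 gene share their target and are not replicates of a condition.

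The spots were read on 5 dual-colour arrays of mouse retina, which the series title calls explants (retina held in culture as a whole tissue). On each array channel 1 carried total RNA of wild-type mice and channel 2 total RNA of mice labelled as mutant for Rb (Rb-) and described as a knockout of this tumour suppressor. No allele, age, driver of a deletion or count of pooled animals is given in the sources used here, and nothing says that the arrays came from separate animals, so a p-value here reflects array-to-array spread alone, and that spread may be technical. Which dye marked which RNA, and whether dyes were swapped, is likewise not stated, so a negative log2 ratio is given as deposited and is assigned neither to the mutant nor to the wild type.

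In a rod, light turns on rhodopsin in the disc membrane, which activates the G protein transducin, whose alpha subunit Gnat1 encodes. Transducin in turn releases the cyclic GMP phosphodiesterase from its inhibitory gamma subunit, the product of Pde6g, and cyclic GMP falls and channels close. Phosducin, from Pdc, binds the beta and gamma subunits of transducin. The guanylyl cyclase from Gucy2f and its calcium-sensing activator GCAP2, from Guca1b, restore cyclic GMP, and Rom1 sits with peripherin at the rim of the disc.

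The RefSeq table of upstream sequences held 3 of the 6 genes, Pdc, Rom1 and Gucy2f. These are shown as the members with an entry, to set beside ratios that were alike for Pdc and Rom1 across the arrays and unlike for Gucy2f. The first lines give the 250 bases upstream of the annotated start of Pdc (chr1:150319167-150319416, plus strand) and of Rom1 (chr19:8929357-8929606, minus strand) in GRCm38.p6, 5′ to 3′. The last lines give stretches of 26 bases upstream of the Gucy2f start used in that table (chrX:142197005-142197030 and chrX:142196980-142197005, minus strand), which lies inside the outer bounds of the RefSeq gene. Capitals mark TAATCC, the core bound by the photoreceptor factor CRX, on either strand.
Pdc: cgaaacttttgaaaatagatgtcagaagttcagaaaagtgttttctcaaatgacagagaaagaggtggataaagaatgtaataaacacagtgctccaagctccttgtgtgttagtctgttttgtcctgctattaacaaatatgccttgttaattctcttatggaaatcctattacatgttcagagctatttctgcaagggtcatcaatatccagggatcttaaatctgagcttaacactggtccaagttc
Rom1: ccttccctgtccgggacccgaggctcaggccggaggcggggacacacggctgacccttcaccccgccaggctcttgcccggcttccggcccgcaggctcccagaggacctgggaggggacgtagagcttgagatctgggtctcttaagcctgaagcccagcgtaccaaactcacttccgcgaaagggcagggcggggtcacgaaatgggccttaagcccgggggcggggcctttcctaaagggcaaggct
Gucy2f, first stretch: tcaatttaaaGGATTAcaagtgtcac
Gucy2f, second stretch: ctctaaatccTAATCCaggtcttggt

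Both strands of the 250-base windows were searched for TAATCC and for TGCTGA, part of the element bound by Maf factors such as NRL. TAATCC occurred in the Gucy2f window at 2 places, beginning 84 and 59 bases before the start, and in 6.25% of the 32851 windows of the table. TGCTGA occurred in 16.1% of all windows and in none of these 3. Neither run of letters is in the Pdc or the Rom1 window, which says nothing of either factor at these genes. The Rom1 window was 66.8% G and C, the Gucy2f window 45.2% and the Pdc window 36.4%.

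Log2 ratios are given relative to the median of all spots on the array. A value of -1 is a ratio 2-fold under that of the median spot. The 3 genes Pde6g, Pdc and Rom1 had strongly negative ratios on arrays 1 and 3. On arrays 2, 4 and 5 their spots lay between -0.83 and 0.41. Pde6g and 1 Pdc spot were at percentiles 15.7 and 16.7 on array 5. Guca1b and Gucy2f did not share this pattern, being most negative on array 4, and the 3 Gnat1 spots differed among themselves. No member spot passed the limma test after adjustment over all 10036 spots tested (adjusted p from 0.432 to 0.56 for the 8 member spots among them), and 0% of the whole table did. At an unadjusted p under 0.05 there were 2 of the 8, both of Gnat1, where 11.4% of all spots tested lay under it and 5.9% did so with a negative ratio. A ratio in bulk RNA, whichever way it runs, cannot tell a difference in the number of rods from one in RNA per rod.

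**Figure D1:**
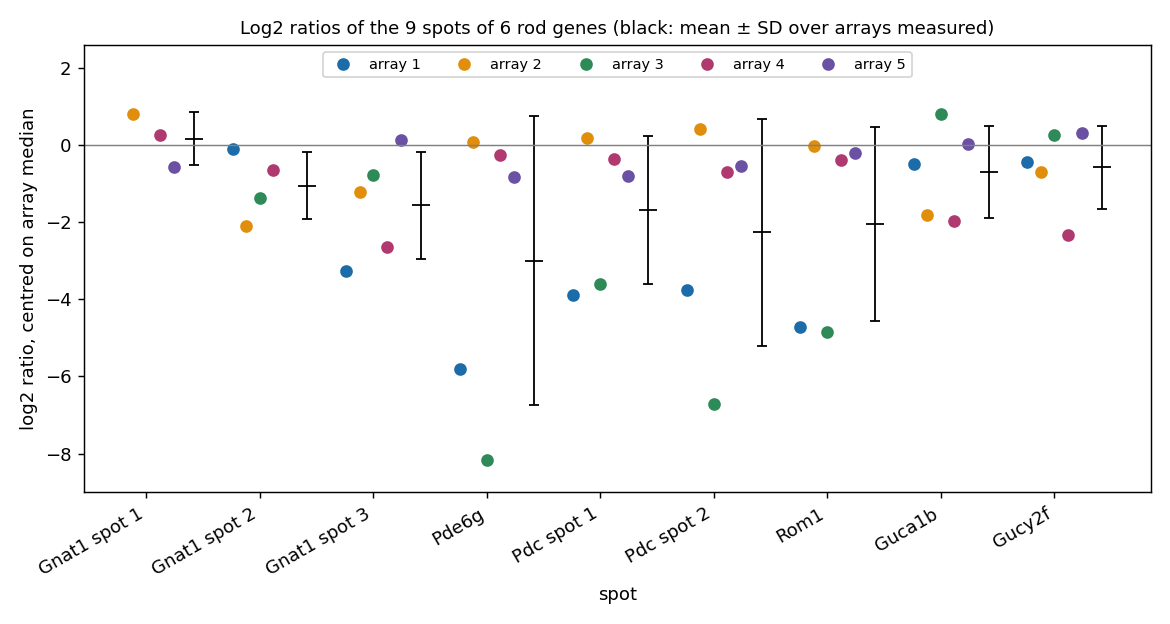
Centred log2 ratio (vertical axis) of each of the 9 spots (horizontal axis), with 1 coloured point per array and the mean ± SD over the arrays measured in black. Pde6g, both Pdc spots and Rom1 lie at -3.62 or lower on arrays 1 and 3 and between -0.83 and 0.41 on the other arrays, while Guca1b and Gucy2f are lowest on array 4, at -1.98 and -2.34.

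Gnat1 encodes the subunit of rod transducin that carries the signal to the phosphodiesterase. Gnat1 spot 3, the one measured on every array, gave -3.28, -1.21, -0.77, -2.65 and 0.12 log2 on arrays 1 to 5. Arrays 1 and 4 were low, array 3 lay closer to the median, and array 5 was the only array above it. The mean was -1.56 ± 1.39 (SD, n = 5), with a limma p of 0.0243 and an adjusted p of 0.432, negative on 4 of 5 arrays.

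Gnat1 spot 2 had -0.11, -2.11, -1.37 and -0.66 on arrays 1 to 4 and no value on array 5. It was negative on each of the 4 arrays measured, lowest on array 2, and near the median on array 1, the array on which spot 3 was lowest. Its mean was -1.06 ± 0.87 (SD, n = 4), with a limma p of 0.0481 and an adjusted p of 0.435. Gnat1 spot 1 was empty on arrays 1 and 3 and had 0.79, 0.25 and -0.58 on arrays 2, 4 and 5, a mean of 0.16 ± 0.69 (SD, n = 3), and was measured on too few arrays to be tested. Spot 2 minus spot 3 was 3.17, -0.89, -0.60 and 1.99 log2 on arrays 1 to 4. Spot 1 minus spot 3 was 2.01, 2.91 and -0.70 on arrays 2, 4 and 5. The spots of this gene thus differed among themselves by sizes like those of the ratios, and no single value stands for Gnat1.

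Pdc, which encodes the transducin-binding protein phosducin, was read by 2 spots that resembled each other on 4 arrays. Spot 1 gave -3.88, 0.19, -3.62, -0.35 and -0.80 log2 on arrays 1 to 5. Spot 2 gave -3.76, 0.41, -6.72, -0.69 and -0.55. Both were far below the median on arrays 1 and 3 and slightly above it on array 2. On arrays 4 and 5 they were less far below it, at percentiles from 16.7 to 34.2.

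The Pdc spots differed by 0.33 log2 or less on arrays 1, 2, 4 and 5 and by 3.10 on array 3, where spot 2 was the lower. The mean was -1.69 ± 1.91 for spot 1 and -2.26 ± 2.94 for spot 2 (SD, n = 5), with limma p-values of 0.0502 and 0.0722 and adjusted p-values of 0.435 and 0.442. Each spot was negative on 4 of 5 arrays, and an exact permutation test that flips the signs of arrays (two-sided) gave p = 0.125 for both. Without array 3 the mean of spot 2 was -1.15.

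Pde6g, whose product holds the rod phosphodiesterase inactive in the dark, had the most negative ratio of the 9 spots. The values were -5.80, 0.08, -8.18, -0.27 and -0.83 log2 on arrays 1 to 5. On array 3 it was the lowest of 13145 measured spots, a ratio 289-fold under that of the median spot, and on array 1 it ranked 15 from the bottom of 12683, 55.6-fold under the median. On array 2 it lay at the 55.2 percentile, on array 4 at 37.8 and on array 5 at 15.7. The mean of -3.0 ± 3.75 (SD, n = 5) was smaller than its spread, with a limma p of 0.0618, an adjusted p of 0.441 and, by the exact sign-flip permutation test, p = 0.125.

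Rom1, a tetraspanin of the disc rim, gave -4.72, -0.03, -4.86, -0.40 and -0.21 log2 on arrays 1 to 5. It ranked 61 from the bottom on array 1 and 52 on array 3, and its percentiles on arrays 2, 4 and 5 were 48.2, 32.6 and 40.6. It was negative on all 5 arrays, as were 11.2% of the 6753 spots measured on all of them, and on array 2 only by 0.03. Its mean was -2.04 ± 2.51 (SD, n = 5), with a limma p of 0.0617 and an adjusted p of 0.441. The exact sign-flip permutation test gave p = 0.0625, which is as small as 5 arrays allow.

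Guca1b, the calcium sensor that activates the cyclases when calcium is low, gave -0.49, -1.82, 0.80, -1.98 and 0.02 log2 on arrays 1 to 5. Arrays 2 and 4 were low, at percentiles 10.7 and 9.08, and array 3 was high, at 71.4. Its mean was -0.70 ± 1.19 (SD, n = 5), with a limma adjusted p of 0.526 and p = 0.375 by the exact sign-flip permutation test. Gucy2f, one of the photoreceptor membrane guanylyl cyclases, had -0.44, -0.70, 0.27, -2.34 and 0.30. Only array 4 was far from the median, at percentile 6.77. Its mean was -0.58 ± 1.08 (SD, n = 5), with a limma adjusted p of 0.56 and p = 0.312 by the same exact permutation test. Without array 4 the mean was -0.14 for Gucy2f and -0.37 for Guca1b, which had -0.41 without array 2 and -1.07 without array 3.

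**Figure D2:**
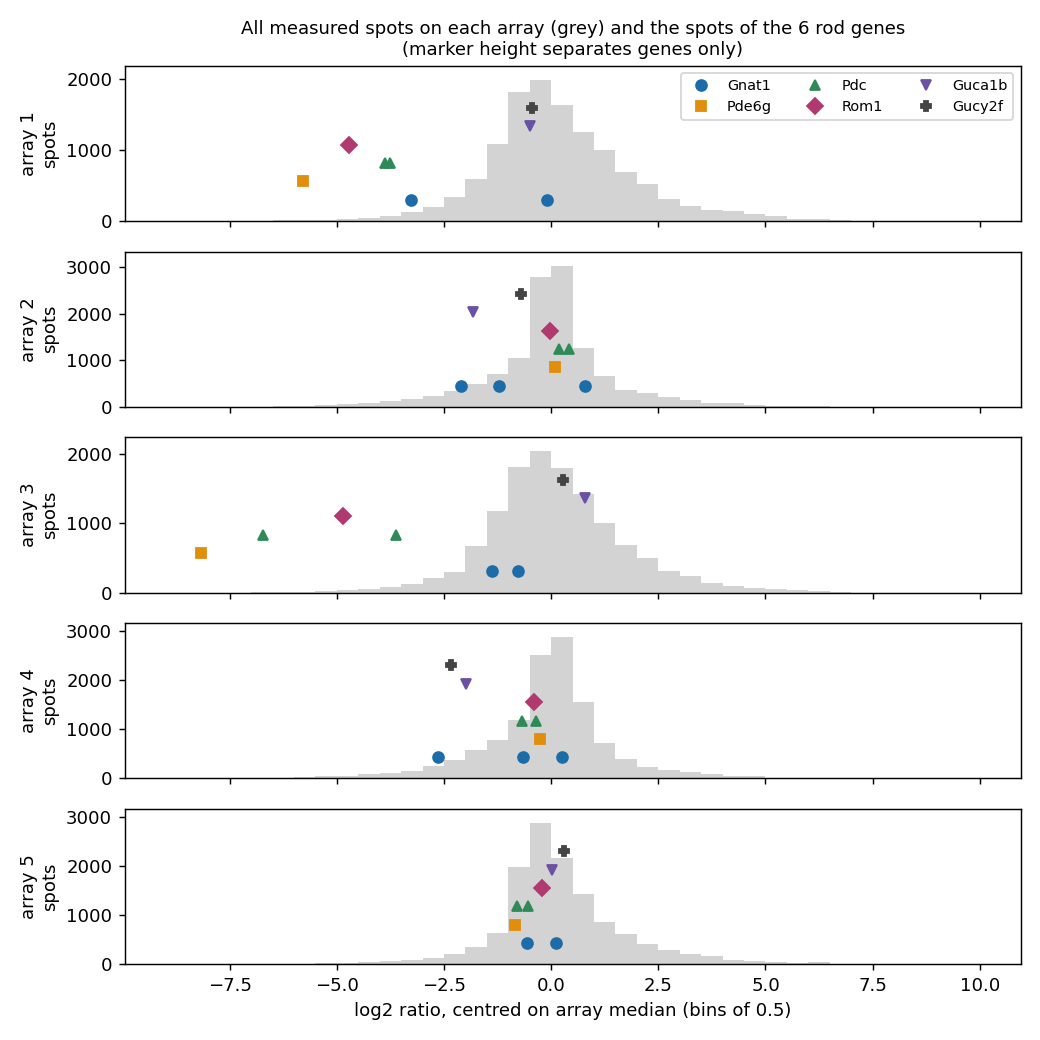
Number of measured spots (vertical axis, control spots left out) by centred log2 ratio in bins of 0.5 (horizontal axis) on each array, in grey, with the spots of the 6 genes marked above at heights that only separate the genes. Pde6g, Pdc and Rom1 stand in the lower tail of arrays 1 and 3 and inside the main body on arrays 2, 4 and 5.

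Across all 9 spots, the number below the array median was 8 of 8 measured on array 1, 5 of 9 on array 2, 6 of 8 on array 3, 8 of 9 on array 4 and 5 of 8 on array 5. Among all spots with a single gene symbol 61.9%, 49%, 59.5%, 47.8% and 58.4% lay below it on arrays 1 to 5. The count on array 1 was 7 of 8 when arrays were centred on the spots measured on all 5 or on the spots with a single symbol, and the other counts were the same under both. With no centring, ratios under 0 rather than under the array median numbered 7 of 8 on array 3 and 8 of 8 on array 5. The deposited medians of these arrays were -0.715 and -0.742, so most of all spots were under 0 there too. The shares above do not apply to these counts. Ratios under -1 numbered 5, 3, 5, 3 and 0 of the member spots, against 20.2%, 18%, 20.9%, 19.9% and 12.3% of all spots on arrays 1 to 5. The median of the member spots minus that of all spots was -3.52, -0.03, -2.49, -0.66 and -0.38, a mean of -1.42 ± 1.51 (SD, n = 5), given as a description with no test. It was -0.36 over arrays 2, 4 and 5 and -0.89 without array 1.

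A ratio under -3 on both arrays 1 and 3 was rare. It was found for 31 of the 10148 spots measured on both, 0.305%, and 4 of these were member spots, those of Pde6g, Pdc and Rom1. Of the 31 spots, 25 had a single gene symbol, and 9, the 4 member spots among them, belonged to the list of rod phototransduction and disc genes. The 25 were of 21 genes. These also included the rod development and upkeep genes Nrl, Tulp1, Rp1, Samd11 and Aipl1, the cone opsin Opn1sw, and genes of no list such as Aak1 and Sv2b. Arrays 1 and 3 are those on which Pde6g, Pdc and Rom1 were lowest, so the count of member spots is a description and no test.

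The likeness of the members can be stated as distances. The root mean square difference of centred log2 ratios over the 5 arrays was 0.73 between Rom1 and Pdc spot 1, 0.98 between Rom1 and Pdc spot 2, and 1.15 between Pde6g and Pdc spot 2. Between Guca1b and Gucy2f it was 0.59. Between Pde6g and Gucy2f it was 4.61, and between Pde6g and Guca1b 4.82. Pde6g was farther from Rom1, at 1.59, and from Pdc spot 1, at 2.21. Gnat1 spot 3 was at 1.38 from Gucy2f, 1.49 from Guca1b and 1.82 from Pdc spot 1. It was at 2.25 from Rom1, 2.92 from Pdc spot 2 and 3.73 from Pde6g.

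Among 4413 spots of other single genes measured on all 5 arrays, those nearest to Rom1 were Sv2b at a root mean square difference of 0.32, Sag at 0.36 and Prph2 at 0.37, where the median spot lay at 2.83. Sv2b encodes a synaptic vesicle protein, Sag rod arrestin, which shuts off rhodopsin, and Prph2 peripherin, the partner of Rom1. Nearest to Pdc spot 1 were Aak1 at 0.38, Nrl, the transcription factor that specifies rods, at 0.42 and Ccdc136 at 0.48, against a median of 2.21. Nearest to Pdc spot 2 were Rtbdn at 0.50, Sv2b at 0.73 and Llgl2 at 0.99. Nearest to Pde6g were Rtbdn, which encodes the retinal protein retbindin, at 1.12, Sv2b at 1.46 and Samd11 at 1.53, against a median of 4.27.

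The nearest spots to Guca1b, Gucy2f and Gnat1 spot 3 held no listed rod gene, and neither did those to Pdc spot 2 above. For Guca1b they were Hsdl1 at a root mean square difference of 0.32, Tmem59l at 0.41 and Tepsin at 0.44, with a median of 1.53 over all candidates. For Gucy2f they were Zfp703 and Ajm1, both at 0.24, and Gprin1 at 0.33, with a median of 1.39. For Gnat1 spot 3 they were Vps4b at 0.55, Traf3ip3 at 0.66 and Cyth1 at 0.73, with a median of 1.98. These distances describe 5 arrays and carry no test.

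**Figure D3:**
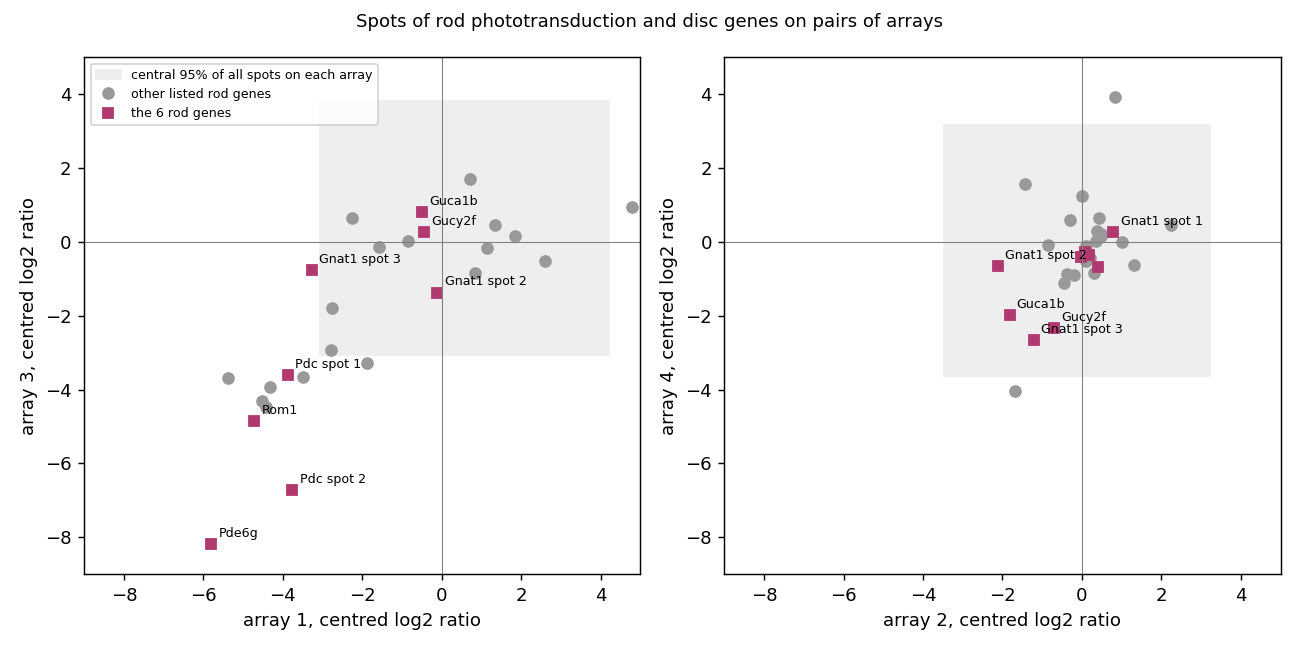
Centred log2 ratios of the spots of the 6 genes (squares) and of the other listed rod genes (circles), array 3 against array 1 on the left and array 4 against array 2 on the right, with the central 95% of all spots on each array shaded. Pde6g, Pdc and Rom1 lie beyond the shading on both arrays 1 and 3, and all squares lie inside it on arrays 2 and 4, where the unlabelled squares are Pde6g, Pdc and Rom1.

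The rod phototransduction and disc list, which includes the 6 genes, held 28 genes, of which 21 had a spot, 42 spots in all. None of its 31 tested spots passed limma after adjustment, against 0% of all spots, and the smallest adjusted p was 0.409. At an unadjusted p under 0.05 there were 3 negative and 1 positive of the 31, beside 11.4% of all spots tested, and 2 of the negative ones were the Gnat1 spots above. The positive one, of Rgs9bp, had a mean of 2.15 over 4 arrays and a limma p of 0.0101. The list's spots below the array median were 25 of 33 on array 1, 15 of 36 on array 2, 20 of 31 on array 3, 23 of 35 on array 4 and 16 of 35 on array 5. These are 75.8%, 41.7%, 64.5%, 65.7% and 45.7%, beside 61.9%, 49%, 59.5%, 47.8% and 58.4% of all spots with a single symbol, so the list stood above that share on arrays 1, 3 and 4 and under it on arrays 2 and 5. Their medians were -2.25, 0.10, -0.85, -0.35 and 0.09.

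Among the partners of Gnat1 in transducin, the beta subunit Gnb1 had 2 spots measured on all 5 arrays. One had -2.79, 0.08, -2.92, -0.26 and -0.03 on arrays 1 to 5 and the other -2.75, 0.43, -1.79, 0.65 and 0.22. A further Gnb1 spot had 1.34, -1.94 and 0.46 on arrays 1 to 3, with the opposite sign on each. The rod gamma subunit Gngt1 had -1.89, 0.20, -3.28, -0.45 and -0.12, with a limma adjusted p of 0.454. These partners were thus low on arrays 1 and 3 on 3 of 4 spots, as Pdc was. Gnat1 spot 3 was also low on array 1, at -3.28. On array 3 the Gnat1 spots 2 and 3 had -1.37 and -0.77, and spot 1 was empty. In cones, Gnat2, the alpha subunit there, had -1.34, -0.04, -0.40, 0.46 and 0.41, and the beta subunit Gnb3 had -1.30, -0.36, -1.97, 0.01 and -0.85.

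The catalytic phosphodiesterase subunit Pde6b, which Pde6g inhibits, had -5.58, 0.31, -0.83 and 0.10 on arrays 1, 2, 4 and 5 and no value on array 3. Like Pde6g, this spot was far below the median on array 1 only among these arrays. Its other spot had 0.83, -1.44, -0.85 and 1.56 on arrays 1 to 4 and did not resemble it. The cone inhibitory subunit Pde6h had -0.04, 0.39, -2.23, 0.52 and -0.66, near the median on array 1, where Pde6g was at -5.80. No difference between rod and cone subunits was tested.

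Prph2, which forms the disc rim with Rom1, had 5 spots. That nearest to Rom1 had -4.52, -0.21, -4.32, -0.90 and -0.45 on arrays 1 to 5, with a limma p of 0.0353 and an adjusted p of 0.432. Another had -3.50, 0.47, -3.67, 0.21 and 0.87. Of those with an empty cell, one had -3.40 on array 1 and none on array 3, and one -6.32 on array 3 and none on array 1. The remaining spot had 0.72, -0.31, 1.72, 0.60 and 0.62, positive where the others were low. So 4 of the 5 Prph2 spots were under -3 on each of arrays 1 and 3 on which they were measured, as were 2.55% and 2.65% of all spots there.

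For the enzymes and sensors that restore cyclic GMP, the values were sparser. Gucy2e, the other retinal guanylyl cyclase, had 1.55, -2.33 and -1.61 on arrays 3, 4 and 5, so that both cyclases were above the median on array 3 and at -2.33 or lower on array 4. Guca1a, which encodes GCAP1, had -4.37, 2.25, 0.45 and -0.04 on arrays 1, 2, 4 and 5, unlike Guca1b on array 1. Rcvrn, recoverin, the calcium sensor that holds back rhodopsin kinase, had -4.43, -0.37, -0.87 and -0.53 on the same arrays. The exchanger Slc24a1 had 3 spots, of which the best covered had -1.57, -0.14, -0.63 and 0.77 on arrays 1, 3, 4 and 5, and the channel subunit Cnga1 had -0.06 and 1.47 on arrays 1 and 2. Pde6a, Pde6c, Gngt2, Rgs9, Grk1 and Cngb1 had no spot with a single gene symbol in the annotation, so they have no values here.

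**Figure D4:**
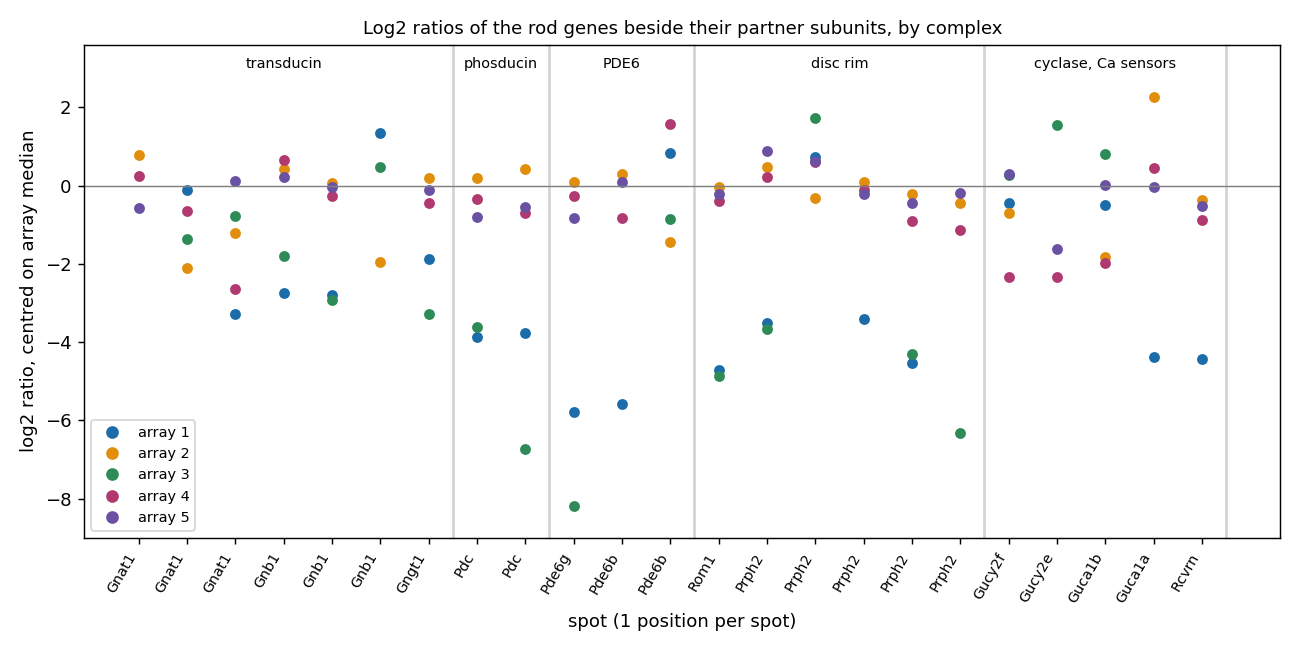
Centred log2 ratio (vertical axis) of each spot of the 6 genes and of their partners, grouped by complex along the horizontal axis, with 1 coloured point per array. Arrays 1 and 3, where measured, lie low for most spots of the transducin beta and gamma subunits, phosducin, the phosphodiesterase and the disc rim. Gnb1, Pde6b and Prph2 each have a discordant spot. Guca1a and Rcvrn lie at -4.37 and -4.43 on array 1 and have no value on array 3. Such low values are not seen for Gucy2f or Guca1b, nor for Gucy2e, which has no value on array 1.

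Of the factors that act on rod genes, Nrl had -3.45, 0.20, -3.92, 0.23 and -0.28 on arrays 1 to 5 on its fully measured spot, and its other spot was empty on arrays 1 and 3. One Crx spot had -1.16, 0.62, -0.28, 0.79 and 0.76, and the other had 0.16, -2.84, -1.02 and -1.64 on arrays 1, 2, 3 and 5, with the opposite sign on arrays 1, 2 and 5. The list of cone phototransduction genes, 11 spots of 9 genes, had 8 of 10 measured spots below the median on array 1, 3 of 9 on array 2, 7 of 9 on array 3, 2 of 10 on array 4 and 7 of 10 on array 5, beside the shares of all single-symbol spots given above. Its medians were -1.17, 0.39, -1.12, 0.41 and -0.49 on arrays 1 to 5, and 0 of its 8 tested spots passed. Its lowest spot on arrays 1 and 3 was that of the cone opsin Opn1sw. That spot had -4.51, 0.41, -4.18, 0.73 and 0.33 on arrays 1 to 5, so low values there were not limited to rod genes.

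The values of other gene lists on these arrays were as follows, with no spot of any list past the threshold. Rod development and upkeep genes, which include Nrl and Crx, had 16 spots of 12 genes. Their medians were -2.26, 0.11, -1.13, 0.11 and 0.43 on arrays 1 to 5. Below the array median were 83.3%, 46.7%, 69.2%, 46.7% and 37.5% of those measured, beside the shares of all single-symbol spots given above. The 26 spots of DNA replication genes lay above the median for 20 of 21 measured on array 1, 13 of 24 on array 2, 19 of 22 on array 3, 21 of 24 on array 4 and 10 of 25 on array 5, with medians of 1.50, 0.02, 1.67, 0.78 and -0.19. Among markers of other retinal cells, the list medians on arrays 1 to 5 were -1.38, -0.19, -0.84, -0.09 and -0.09 for bipolar cells, -0.47, 0.03, -0.10, -0.04 and -0.05 for Muller glia, -0.32, -0.05, 0.11, -0.09 and 0.11 for amacrine and horizontal cells, and -0.81, 0.02, -1.22, -0.35 and 0.47 for ganglion cells. For progenitors they were -0.32, 0.11, 0.05, 0.18 and -0.04. The bipolar list had 9 spots, of only 3 of its 12 genes, Isl1, Prkca and Pcp2. Markers of the pigment epithelium had 4 spots, those of microglia 2 and those of blood 0. The files hold ratios and no intensities, so neither the presence of a cell type nor a level of any marker could be read. The part of these lists in the ratios of the rod genes was not tested.

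The arrays themselves differed in ways that touch these values. Usable ratios covered 71.8% to 75.9% of spots, and the scaled median absolute deviation of all spots was 1.37, 0.83, 1.31, 0.90 and 0.97 log2 on arrays 1 to 5, widest on arrays 1 and 3. In units of this spread Pde6g lay at -4.22 and -6.23 on arrays 1 and 3, Rom1 at -3.44 and -3.70, and Gucy2f at -2.60 on array 4. Rb1, the targeted gene, had -0.07, 0.20, -0.23, 0.04 and -0.08 on one spot and 0.95, 2.06, -1.33 and 1.72 on arrays 1, 2, 3 and 5 on the other. Without the allele it is not known whether either spot detects the mutated RNA, so neither checks the labels.

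Arrays 1, 2 and 3 were scanned at focus position 10 and arrays 4 and 5 at focus position 0. Within the first scan group the mean log2 ratio was -4.63 for Pde6g, -2.43 and -3.35 for the Pdc spots, -3.20 for Rom1 and -1.75 for Gnat1 spot 3. Within the second it was -0.55, -0.58 and -0.62, -0.30 and -1.27 for the same spots. Guca1b had -0.50 and -0.98, and Gucy2f -0.29 and -1.02. Arrays 1 and 3, on which Pde6g, Pdc and Rom1 were low, both belong to the first scan group, as does array 2, on which these genes lay near the median. The part of the scan setting in the ratios was not tested.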

How the data were processed

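Arrays were scanned at 635 and 532 nm and quantified in GenePix Pro 4.1.1.29, subtracting local background without normalizing, per the labels. The authors deposited a log2 ratio per spot, the log base being read from the values. How the ratio runs, the dyes and what left cells empty are not given in the sources consulted. Cells at 16.61, a filler for the log2 of a ratio with a zero denominator, were set to missing, and each array was centred on its median. The depth of an array is its number of usable spots, and 5 arrays limit the precision.

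The annotation listed 1 gene symbol for 7722 spots besides the 192 of the control ACTB, several for 353 and none for 9061. Names were updated through gene identifiers to RefSeq GRCm38.p6, with 7663 spots matched. Spots measured on at least 4 arrays, ACTB left out, were tested against 0 with limma 3.58.1 (R 4.3.3), Benjamini-Hochberg adjusted over all, at a threshold of 0.05. The code was also run on simulated data, where recovery of changes was required only at a spread far below that observed. That check does not tell which changes the test could find in these data. Spots of a gene are numbered in the order of the table. Named beside the 6 genes were subunits and enzymes of their complexes, Nrl, Crx, Rb1 and the 3 nearest spots of each member measured on all 5 arrays. Also named were some genes under -3 on both arrays 1 and 3, Rgs9bp of the rod list, and the bipolar genes with a spot. Members, lists and alternatives were chosen with earlier results of these data known.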

Additional observations from a re-analysis of the deposited data

How the results depend on the processing

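The number of spots past the threshold was 0 under all 19 alternatives, among them other centring, scaling, quantile normalization, the filler kept, other filters on missing values, arrays left out, each scan group alone, the scan group as a random block and the test without moderation, and the smallest adjusted p of any spot under these was 0.102. At an unadjusted p under 0.05 there were 1146 spots in limma. The means of Pde6g, both Pdc spots, Rom1 and the Gnat1 spots 2 and 3 were negative under every alternative that gave them. They ran from -4.94 to -0.34 for Pde6g and from -3.26 to -0.21 for Rom1, the upper ends without arrays 1 and 3. The lower ends came without arrays 2 and 4, an unplanned alternative. The lowest planned ones were -4.63 and -3.20, within focus position 10. Leaving out each array in turn gave -3.77 to -1.71 for Pde6g, -2.16 to -1.14 and -2.93 to -1.15 for Pdc spots 1 and 2, -2.55 to -1.34 for Rom1, -1.38 to -0.71 and -1.98 to -1.13 for Gnat1 spots 2 and 3, -1.07 to -0.37 for Guca1b and -0.80 to -0.14 for Gucy2f. The values nearest 0 came without array 3 for Pde6g, Pdc spot 2 and Rom1 and without array 4 for Guca1b and Gucy2f. Gnat1 spot 1 turned negative with no centring (-0.12), within focus position 0 (-0.16) and without arrays 2 and 4 (-0.58, a single array), and ran from -0.16 to 0.52 with 1 array left out. Without arrays 2 and 4, an alternative chosen after seeing the data, Guca1b turned to 0.11 and Gucy2f to 0.044. The member median ran from -1.76 to -0.89 with 1 array left out. The share of the rod list below the median, 58.7% on average over the arrays, ran from 51.03% to 62.9% as an average under the alternatives. Centring, scaling and quantile normalization could not move it, as they keep the order of spots on an array. It moved only with the filler kept or with arrays left out. On single arrays that share was 41.7% to 75.8%, where spots with a single symbol lay at 47.8% to 61.9%. Each ratio already pairs the RNAs within an array. No paired analysis was possible beyond that, because the labels form 1 group and its replicate numbers pair with no other.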
